A study of Mus musculus with 18 samples.

Results

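Among the differential H3.3 sites that the authors listed in mouse nucleus accumbens, 418 of 2300 lay inside gene bodies more than 100 kb from the annotated transcription start. They were chosen by annotation alone, as the listed sites of class gene body whose distance to the start exceeded 100 kb, without use of any read count. A further 699 gene body sites lay nearer the start. The deep sites came from 2 lists, 246 from susceptible re-exposed mice against controls and 172 from acutely stressed mice against controls, and they fell in 323 genes on all 19 autosomes.

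Histone H3.3 is the H3 variant that chaperones place into chromatin independently of DNA replication, so it accumulates and turns over in neurons after they stop dividing. It is found along the bodies of transcribed genes as well as at promoters and enhancers. Very long genes are frequent among those that neurons use for synaptic adhesion, axon guidance, ion channels and splicing control, and in such genes the distal introns lie far from any promoter. The nucleus accumbens is a ventral striatal part of the reward circuit, built mainly of GABAergic medium spiny neurons.

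Susceptible re-exposed mice were C57Bl/6J animals that had been through chronic social defeat, had been classed as susceptible by social interaction 48 h after defeat, and met an aggressor again before killing. Acute stress mice were C57Bl/6J controls, per the labels, that went through the same encounter, and control mice were C57Bl/6J animals taken from the home cage. The encounter was 5 min of aggression and 55 min of housing beside the aggressor, and every group was killed 28 days after the last defeat episode. The labels describe 3 H3.3 ChIP and 3 Input libraries per condition. Both sides of the nucleus accumbens from 5 animals went into each library, and the labels used here give neither age nor sex. No susceptible mice without the renewed encounter were among the samples, so earlier defeat, selection as susceptible and renewed stress cannot be told apart. The tissue was bulk, so a change in the cells sampled and a change in H3.3 per cell cannot be told apart either, and a list of differential sites does not allow the tissue label to be checked against marker genes.

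Values were listed for 3 susceptible libraries with 2 controls, and for 2 acute stress libraries with 2 controls, and libraries are named here by their position in the list. Values are normalised read counts, and within 0.011 normalised counts 99.9% to 100% of them per library were whole multiples of the worth of 1 read. That worth was 0.828 to 1.63 normalised counts in the susceptible libraries against 0.534 and 0.918 in their controls, and 0.951 and 1.43 in the acute stress libraries against 0.657 and 1.08 in their controls. The deep sites held 453 to 828 reads per susceptible library against 3380 and 5379 in the control libraries, and 959 and 1385 reads per acute stress library against 1607 and 2586 in the control libraries. A median lower site thus rested on 6 susceptible reads against 35 control reads, or 4 acute stress reads against 34 control reads. The control libraries were shared by both comparisons.

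H3.3 deep in gene bodies was lower in susceptible re-exposed mice at nearly every listed site. Of the 246 deep sites, 240 were lower and 6 were higher than in controls, in 213 genes. The lower share of 97.6% stands beside 97.6% lower and 2.41% higher over all 1286 listed sites, and beside 376 lower and 14 higher sites (96.4% lower) nearer the start, so the direction was that of the whole list. After acute stress both directions occurred deep in genes, with 101 lower and 71 higher sites in 161 genes. The lower share of 58.7% stands beside 46.6% lower and 53.4% higher over all 1014 listed sites, and beside 144 lower and 165 higher sites nearer the start. These splits describe the authors' lists and were not tested, because the windows that were examined and not listed are not part of them.

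At the 240 lower sites of the susceptible comparison, the median value was 1.63, 2.48 and 1.47 normalised counts in the 3 susceptible libraries, against 12.8 and 11.2 in the 2 control libraries. Susceptible libraries 1 and 3 had no read at 62 and 56 of these sites and library 2, the deepest of the 3, at 5, whereas neither control library was at 0 anywhere. The highest susceptible library stayed below the lowest control library at 240 of 240 sites, as at 100% of lower sites in the whole list. At the 6 higher sites the groups did not overlap at 4, against 90.3% of higher sites in that list. The gap between the nearest libraries at lower sites had a median of 7.63 normalised counts and a minimum of 4.17. The lowest control values at any of them were 10.1 and 9.61. Every listed lower site, deep or not, held at least 29 control reads. The lack of control values at 0, the control minima and the gap thus follow largely from listing.

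**Figure D1:**
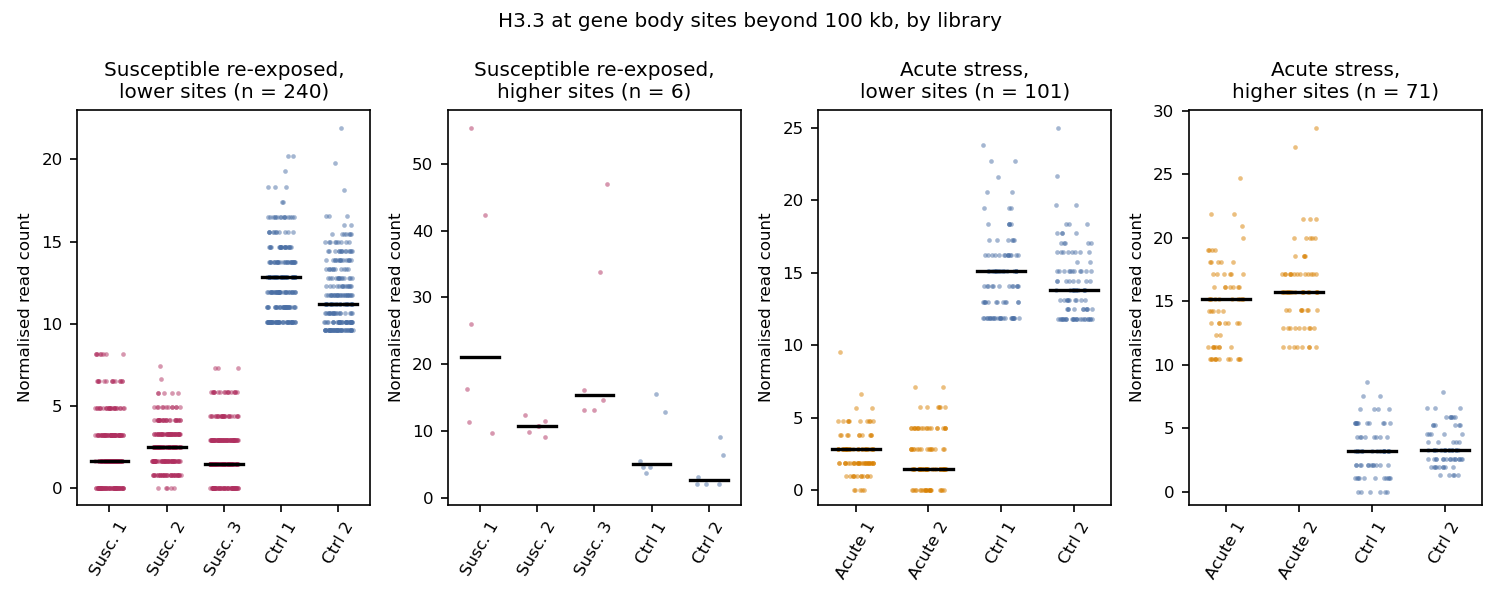
Normalised read count at every gene body site beyond 100 kb, by library, for lower and higher sites of each comparison, with stress libraries left of control libraries. Each point is 1 site and the black bar is the median; at the 240 lower susceptible sites the medians were 1.63, 2.48 and 1.47 in susceptible libraries against 12.8 and 11.2 in controls.

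The acute comparison showed levels of the same order. At its 101 lower deep sites the median was 2.85 and 1.43 normalised counts in the 2 acute stress libraries, against 15.1 and 13.8 in the 2 control libraries. At its 71 higher deep sites it was 15.2 and 15.7 in the acute stress libraries, against 3.24 and 3.29 in the control libraries. The libraries of the groups did not overlap at 101 of 101 lower and 71 of 71 higher sites, as at 100% of the listed sites in either direction. The plot of all values by library shows that lower and higher acute sites are near mirror images, with the occupied group at about the same level. Listing largely set that likeness. Over all listed acute sites, lower ones held at least 29 control reads and higher ones at least 19 acute stress reads.

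The authors' p per site was under 0.0001 at every listed site, which is the condition for being listed. As an added reading, the whole reads at each site were compared by a two-sided exact binomial test given the libraries' relative depths, which covers counting error only. Among lower susceptible deep sites, 239 of 240 passed 0.0001, against 99.5% of all lower sites in that list, and 4 of 6 higher sites passed, against 83.9%. Among acute deep sites, 96 of 101 lower sites passed, against 96.0% of all lower sites, and 50 of 71 higher sites passed, against 67.8%. The same reads had put these sites on the lists, at the same p threshold. High pass rates were thus largely fixed in advance and add no support. The deep sites passed at about the rate of the whole lists. Apart from the higher susceptible sites, these totals were lower with any library left out: the number of lower susceptible sites passing was 101, 33 and 73 without susceptible library 1, 2 or 3, and 81 and 27 without control library 1 or 2. The number of lower acute sites passing was 1 and 11 without acute stress library 1 or 2, and 31 and 14 without control library 1 or 2. The number of higher acute sites passing was 7 and 11 without acute stress library 1 or 2, and 8 and 3 without control library 1 or 2. The smallest two-sided p that permuting the libraries of 1 site could give is 0.200 for the susceptible and 0.333 for the acute comparison in an exact test, and none is reported.

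The authors' deposited p mostly followed the pooled reads, with departures. Among pairs of deep sites with equal pooled reads in both groups, the p in the authors' deposited table was the same to within 0.1% in 556 of 638 pairs (87.1%) of the susceptible list and 174 of 211 pairs (82.5%) of the acute list. Ptprd and Ptprm, both genes of receptor tyrosine phosphatases, are an example. The Ptprd site had 1.63, 0.83 and 1.47 normalised counts in the susceptible libraries against 11.01 and 10.14 in the control libraries. The Ptprm site had 3.26, 0.83 and 0 against 11.93 and 9.61. Susceptible values spread more widely at Ptprm, yet both sites held 3 susceptible and 31 control reads and had a p of 3.90e-06 in the authors' deposited table. The susceptible reads were 1, 1 and 1 at Ptprd and 2, 1 and 0 at Ptprm. So small a difference does not show how the deposited p treats wide spread. At the higher Auts2 site, where susceptible libraries differed widely, the deposited p was 8.61e-05 and the exact binomial p 4.59e-06. The binomial p lay within 1.5 times of the deposited p at 78.0% of susceptible and 68.0% of acute deep sites. The value in each library is therefore given here.

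Of the 8 lower susceptible sites with the smallest p, those of Vwf and Cdk14 held the fewest susceptible reads. Cdk14, a cyclin-dependent kinase gene linked to Wnt signalling, had a site 393 kb into a 463 kb transcript (mm10, chr5:4872576-4872825). It held 0, 0.83 and 0 normalised counts in the susceptible libraries against 10.09 and 9.61 in the control libraries. A single susceptible read stood against 29 control reads, a depth-adjusted ratio of 0.0408 with an exact 95% interval of 9.99e-04 to 0.246. In the authors' deposited table the log2 fold change was -5.16 and the p 3.24e-07. Vwf encodes the clotting protein von Willebrand factor, made by endothelial cells rather than neurons. Its site (chr6:125687101-125687375) held 0, 0.83 and 0 in the susceptible libraries against 12.85 and 10.14 in the control libraries. It lay just past the 3' end of the RefSeq gene, so its place in the gene body rests on the authors' annotation.

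The next lower sites by p belonged to genes of several kinds. Itgbl1, a secreted integrin-beta-like protein gene, had 1.63, 0.83 and 1.47 normalised counts in the susceptible libraries against 13.76 and 11.21 in the control libraries. Adarb2, a brain-expressed relative of the RNA-editing deaminases, had 1.63, 0.83 and 2.94 against 14.68 and 11.75. Rnls, the gene of the flavoprotein renalase, had 1.63, 0.83 and 1.47 against 10.09 and 12.28. In each of these the 3 susceptible libraries held only 1 or 2 reads each, near the floor, and lay far below both control libraries. Dscam, an immunoglobulin adhesion gene that neurites use for self-avoidance, had 0, 1.66 and 0 against 10.09 and 10.68 at a site 392 kb from the start (chr16:96778201-96778450). Its ratio of 0.0764 had an exact 95% interval of 0.00885 to 0.300, and the p in the authors' deposited table was 1.01e-06.

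In the susceptible comparison, Lrp1b, a very large endocytic receptor gene of the LDL receptor family, held more deep sites than any other gene. Its 5 sites were all lower and lay between 1178 and 1737 kb from the start of a 2057 kb transcript, no nearer to each other than 99.5 kb. At the farthest of them (chr2:40916251-40916625) the susceptible libraries held 1.63, 1.66 and 5.87 normalised counts against 16.52 and 14.95 in the control libraries. The ratio was 0.180 with an exact 95% interval of 0.0686 to 0.402. The other 4 sites had ratios of 0.191, 0.192, 0.275 and 0.289. Along the 559 kb they span, only falls large enough to be listed are seen. Their similar size says nothing of the windows between. No nearer gene body site and no promoter site of Lrp1b was listed.

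Rbfox1, which encodes a splicing factor of neurons, had 4 lower sites in the susceptible comparison, at 264, 513, 552 and 558 kb of a 1528 kb transcript. The first of them (chr16:6148751-6149000) held 0, 2.48 and 0 normalised counts in the susceptible libraries against 10.09 and 9.61 in the control libraries. The pair at 552 and 558 kb lay 6.39 kb apart. There the susceptible libraries held 3.26, 1.66 and 2.94 at the nearer site and 3.26, 2.48 and 2.94 at the farther, against 13.76 and 12.81, and 11.01 and 12.81, in the control libraries. The pair thus had like values in each library, within the narrow range that listing allowed. Their likeness says nothing of the windows between. In all, 28 genes held at least 2 deep sites in the susceptible comparison, and in all but 1 of them every deep site was lower.

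**Figure D2:**
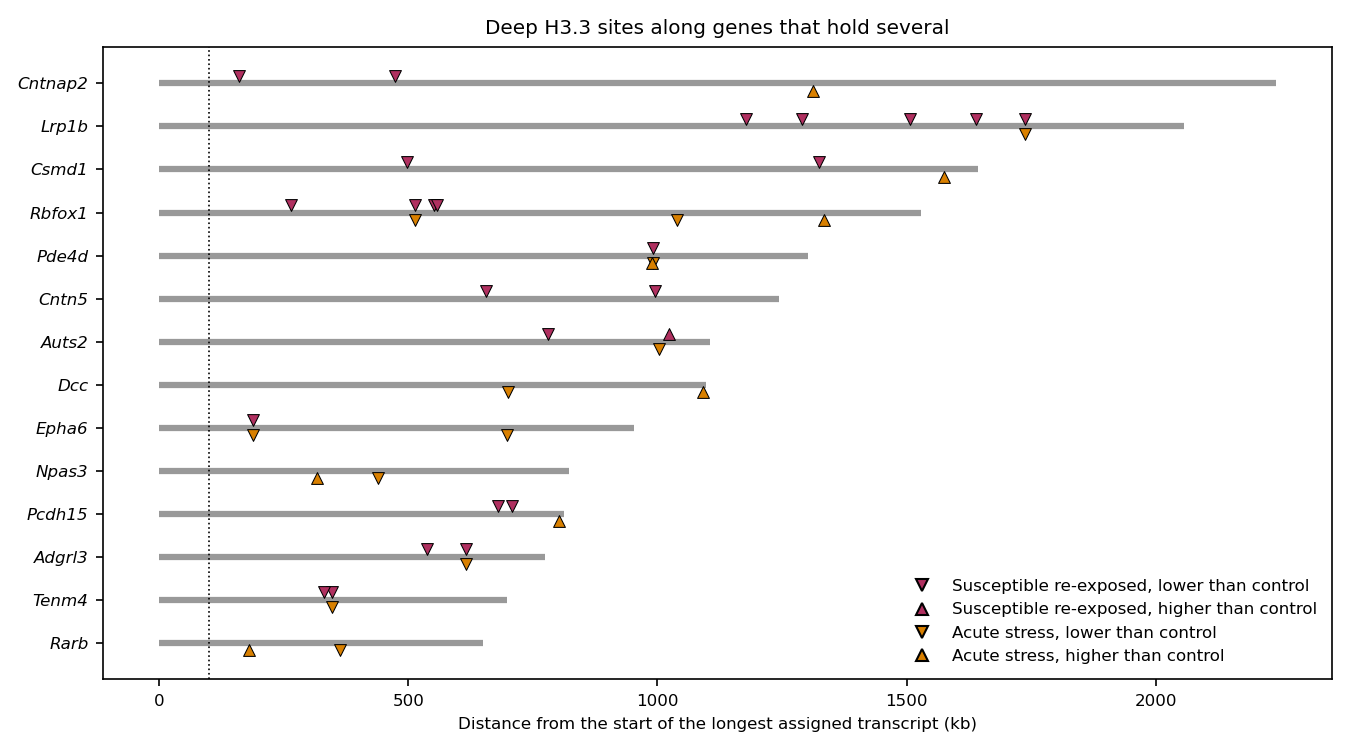
Positions of deep sites along 14 genes that hold several, as distance in kb from the start of the longest assigned transcript (grey bar), with susceptible sites above the bar and acute sites below it; downward triangles are sites lower than in control and upward triangles sites higher. The dotted line marks 100 kb; Lrp1b carries 5 lower susceptible sites between 1178 and 1737 kb, and the upward triangles of Rbfox1, Pde4d, Dcc, Npas3 and Rarb share their gene with downward acute triangles.

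Auts2, a nuclear protein gene tied to Polycomb complexes and neuronal development, held susceptible sites of opposite direction. At 780 kb (chr5:131762076-131762350) the susceptible libraries held 1.63, 1.66 and 0 normalised counts against 16.52 and 11.75 in the control libraries. At 1023 kb (chr5:131519626-131519900) they held 42.32, 10.76 and 33.76 against 12.85 and 6.41. Susceptible library 2 lay between the control libraries at the second site, so the groups overlapped there. An acute site at 1004 kb, between these positions, was lower, with 2.85 and 0 in the acute stress libraries against 11.9 and 11.83 in the control libraries.

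The 6 higher deep sites of the susceptible comparison belonged to Plxdc2, Kcnq1, Ank3, Auts2, 2610307P16Rik and Nrg2. Plxdc2, a transmembrane protein gene, had 55.34, 11.59 and 46.97 normalised counts in the susceptible libraries against 15.6 and 9.08 in the control libraries (chr2:16682976-16683250). Kcnq1, a voltage-gated potassium channel gene, had 26.04, 9.1 and 16.15 against 5.51 and 2.14. At Plxdc2, Kcnq1 and Auts2 the excess came mainly from susceptible libraries 1 and 3, with library 2 the lowest of the 3, and the groups overlapped at Plxdc2 and Auts2. The other 3 were more even. Ank3, the gene of the axon initial segment scaffold ankyrin-G, had 16.28, 9.93 and 13.21 against 4.59 and 2.14. Nrg2, a neuregulin growth factor gene, had 11.39, 12.42 and 14.68 against 4.59 and 3.2, and the unnamed transcript 2610307P16Rik had 9.77, 10.76 and 13.21 against 3.67 and 2.14. For Nrg2 and 2610307P16Rik the counting p was 1.77e-04 and 1.45e-04, short of the threshold in the exact binomial test.

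The authors also listed an enrichment ratio for each group, without a stated denominator. In the authors' deposited table it was 0.26 in susceptible and 0.02 in control samples at Plxdc2, 0.38 and 0.03 at Kcnq1, and 0.26 and 0.03 at the higher Auts2 site. Only 1 of the 6 higher sites reached a ratio of 1 in susceptible samples in the authors' deposited table. Of the 240 lower sites, 54.2% reached a ratio of 1 in susceptible samples in the authors' deposited table, with 27 sites listed as infinite. In control samples 76.2% reached it, with 144 sites listed as infinite. For the acute list the authors' deposited table gave a ratio of at least 1 in stress samples at 26.7% of lower and 81.7% of higher deep sites. In control samples it did so at 75.2% and 66.2%. Many of these ratios were infinite: 26 of 27 at lower and 28 of 58 at higher sites in stress samples. In control samples 52 of 76 were infinite at lower sites and 47 of 47 at higher sites. With no stated denominator, an infinite ratio is not read here as enrichment.

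After acute stress the lower deep site with the smallest p lay in Igf1r, the insulin-like growth factor receptor gene (chr7:68076001-68076400, 124 kb from the start). It held 3.8 and 4.29 normalised counts in the acute stress libraries against 23.79 and 21.68 in the control libraries, the highest control level of the 8 lower acute sites with the smallest p. The ratio was 0.178 with an exact 95% interval of 0.0683 to 0.391, and the authors' deposited table gave a log2 fold change of -2.49 and a p of 2.09e-07. Srgap1 encodes a GTPase-activating protein downstream of Slit and Robo. Its site held 0 and 1.43 in the acute stress libraries against 11.9 and 12.48 in the control libraries. The predicted gene Gm13986 had 0 and 1.43 against 12.98 and 12.48, and Nckap5 had 0.95 and 1.43 against 11.9 and 15.11. In all of these both acute stress libraries lay far below both control libraries.

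The remaining lower acute sites by p were in genes of synaptic and nuclear regulators. Cpeb3, a gene of an RNA-binding protein that controls translation at synapses, had 1.9 and 0 normalised counts in the acute stress libraries against 16.22 and 12.48 in the control libraries. Its site lay 154 kb along a 155 kb transcript. Adgrl3, a latrophilin gene whose product binds teneurins and FLRT proteins across the synapse, had 2.85 and 1.43 against 15.14 and 17.74. Grik4, a kainate-type glutamate receptor subunit gene, had 1.9 and 1.43 against 16.22 and 13.8. Mef2a, an activity-regulated transcription factor gene, had 2.85 and 0 against 15.14 and 14.45. The ratios at these 4 sites were 0.0822 to 0.136, and the upper bounds of their intervals 0.321 to 0.376.

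Higher sites after acute stress were led by Grik3, another kainate receptor subunit gene (chr4:125604351-125604625, 114 kb from the start). It held 15.21 and 12.86 normalised counts in the acute stress libraries against 1.08 and 1.97 in the control libraries. The ratio was 8.73 with an exact 95% interval of 3.01 to 34.5, and the authors' deposited table gave a log2 fold change of 3.2 and a p of 8.50e-07. Zfp407, a zinc finger protein gene, had 16.16 and 12.86 against 1.08 and 2.63. Enox1, an oxidase gene, had 11.41 and 17.15 against 1.08 and 1.97. Abca13, an ABC transporter gene, had 10.46 and 15.72 against 0 and 1.97, the least mean control signal of the 71 higher acute sites. Each of these rested on 22 to 26 acute stress reads against 3 to 5 control reads.

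The other 4 higher acute sites by p had more control signal. The unnamed transcript 2210408I21Rik had 24.72 and 27.16 normalised counts in the acute stress libraries against 8.65 and 6.57 in the control libraries. Fli1, an ETS transcription factor gene of endothelial and blood cells, had 21.87 and 21.44 against 3.24 and 6.57. Atp8a2, a phospholipid flippase gene, had 16.16 and 15.72 against 2.16 and 3.29. Sema5a, a semaphorin gene of axon guidance, had 20.91 and 20.01 against 5.41 and 4.6. The 2 acute stress libraries were close to each other at Fli1, Atp8a2 and Sema5a, and the ratios of the 4 sites ran from 3.49 to 5.59.

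In 7 of the 10 genes with at least 2 deep sites after acute stress, sites of both directions occurred, namely Rbfox1, Asic2, Dcc, Greb1l, Npas3, Pde4d and Rarb. Pde4d, a cAMP phosphodiesterase gene, held a pair only 1.07 kb apart. At the site 990 kb from the start (chr13:109644251-109644500) the acute stress libraries held 10.46 and 11.44 normalised counts against 1.08 and 1.97 in the control libraries. At the site 991 kb from the start (chr13:109645326-109645575) they held 0.95 and 1.43 against 11.9 and 11.83. The stress and control values had nearly changed places between these nearby windows, which do not adjoin. Listing 1 of them as higher and 1 as lower largely set that pattern, and it says nothing of the windows between. The second Pde4d window was also lower in the susceptible comparison, with 1.63, 0.83 and 2.94 against 10.09 and 9.61.

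Rarb, the retinoic acid receptor beta gene that is enriched in striatum, was higher at 181 kb and lower at 363 kb. The acute stress libraries held 12.36 and 11.44 against 3.24 and 1.31 in the control libraries at the nearer site, and 1.9 and 2.86 against 12.98 and 14.45 at the farther. Npas3, a transcription factor gene, was higher at 317 kb, with 10.46 and 15.72 against 0 and 3.29. It was lower at 440 kb, with 2.85 and 0 against 11.9 and 11.83. Dcc, the netrin receptor gene, was lower at 701 kb, with 1.9 and 5.72 against 18.39 and 15.11. It was higher at 1092 kb of a 1097 kb transcript, with 17.11 and 17.15 against 4.33 and 5.26, a site whose counting p of 1.22e-04 missed the threshold of the exact binomial test. In these genes the listed deep sites did not share a direction. Over all acute deep sites 58.7% were lower and 41.3% higher. The number of genes with both directions was not tested against that split. In the other 3 genes, Cdkal1, Epha6 and Immp2l, both deep sites were lower.

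Some sites lay extremely far from a start. In the susceptible comparison 12 lower sites and 1 higher site were more than 1 Mb away, and in the acute comparison 4 lower and 4 higher sites. The farthest susceptible site was in Macrod2, an ADP-ribosylhydrolase gene, 1969 kb along a 1995 kb transcript, with 3.26, 3.31 and 1.47 normalised counts in the susceptible libraries against 14.68 and 11.75 in the control libraries. The farthest acute site was in Ptprd at 2045 kb, with 2.85 and 0 in the acute stress libraries against 11.9 and 12.48 in the control libraries. Among higher acute sites the farthest was in Csmd1, a complement-control protein gene, at 1574 kb, with 18.06 and 12.86 against 5.41 and 2.63. Cntnap2, a neurexin-family gene of axons, followed at 1311 kb with 10.46 and 12.86 against 0 and 2.63.

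The ratio at lower listed sites was of similar size at every distance, and at higher acute sites its median was larger beyond 400 kb, where few sites lay. Listing at a p under 0.0001 on few reads let in only large differences at any distance. The largest ratio at a lower susceptible deep site was 0.301. Similar medians therefore do not say how evenly H3.3 differed along these genes. The median ratio at lower susceptible sites was 0.187 between 100 and 200 kb, 0.195 between 200 and 400 kb, 0.211 between 400 and 800 kb and 0.180 beyond 800 kb. At lower acute sites it was 0.164, 0.162, 0.164 and 0.144 over the same distances. At higher acute sites it was 4.07, 4.36, 5.59 and 5.75, with 28, 31, 6 and 6 sites. The median over all deep lower sites was 0.191 in the susceptible and 0.164 in the acute comparison, beside 0.197 and 0.169 at gene body sites nearer the start.

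**Figure D3:**
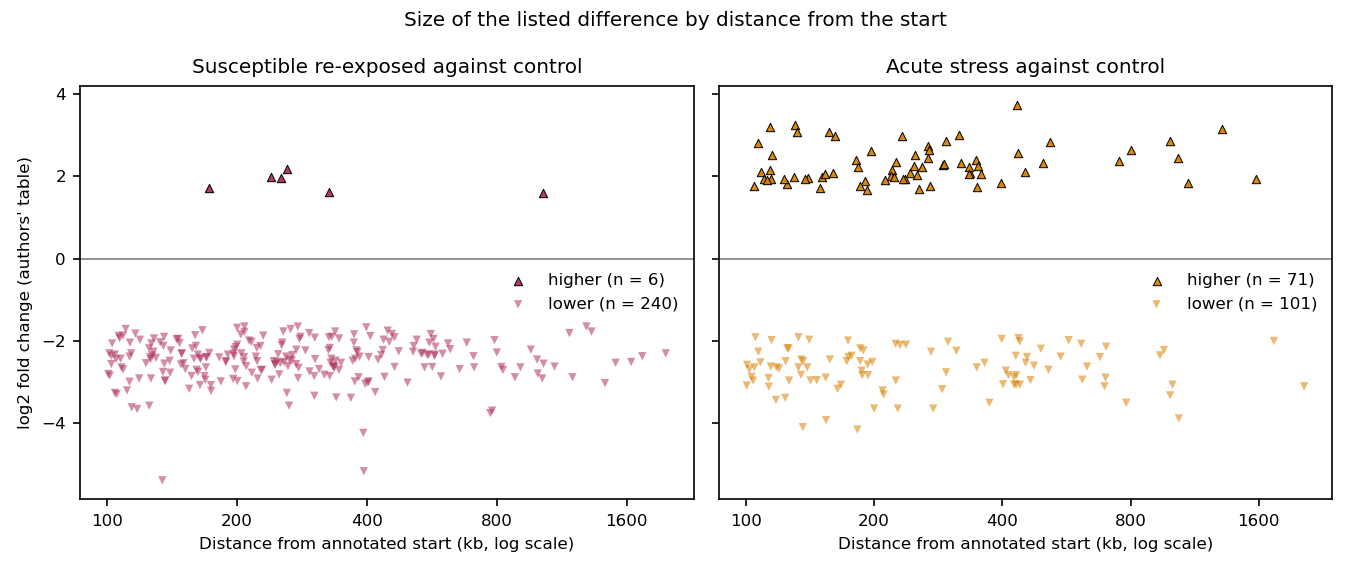
The log2 fold change of each deep site in the authors' deposited table (stress over control) against its distance from the annotated start in kb on a log axis, for susceptible (left) and acute (right) comparisons. The median over all distances was -2.43 at lower susceptible, -2.64 at lower acute and 2.15 at higher acute sites; no listed site lies near 0.

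Lower susceptible sites lay a median of 254 kb from the start, in transcripts with a median length of 457 kb. For acute sites the median distance was 209 kb where lower and 236 kb where higher. Along the stretch beyond 100 kb, lower susceptible sites were spread over its 4 equal parts as 23.3%, 21.2%, 27.5% and 27.9%, and acute lower sites as 23.8%, 25.7%, 30.7% and 19.8%. The 2 directions of the acute list differed in distance: 43.7% of higher and 17.8% of lower sites lay between 200 and 400 kb, and 8.45% and 26.7% between 400 and 800 kb. That difference was seen after the values were known and was not tested.

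The share of genes that held a deep site was larger the longer the gene, while the number of sites per length of gene varied less and in no set order. Of 2313 autosomal protein-coding RefSeq genes longer than 100 kb, 200 (8.65%) held a lower and 5 (0.216%) a higher susceptible deep site, and 95 (4.11%) a lower and 67 (2.90%) a higher acute one. The share with a lower susceptible site was 2.05% for genes of 100 to 200 kb, 8.24% for 200 to 400 kb, 30.2% for 400 to 800 kb and 51.6% above 800 kb. Counted per 10 Mb of gene beyond 100 kb, the same bins held 5.65, 4.96, 8.01 and 6.64 sites. For lower acute sites these densities were 3.12, 2.53, 2.67 and 2.86, and for higher acute sites 0.779, 2.15, 2.38 and 1.53. The density of lower sites thus changed less from bin to bin than the share of genes, whereas that of higher acute sites was lowest in the shortest genes.

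**Figure D4:**
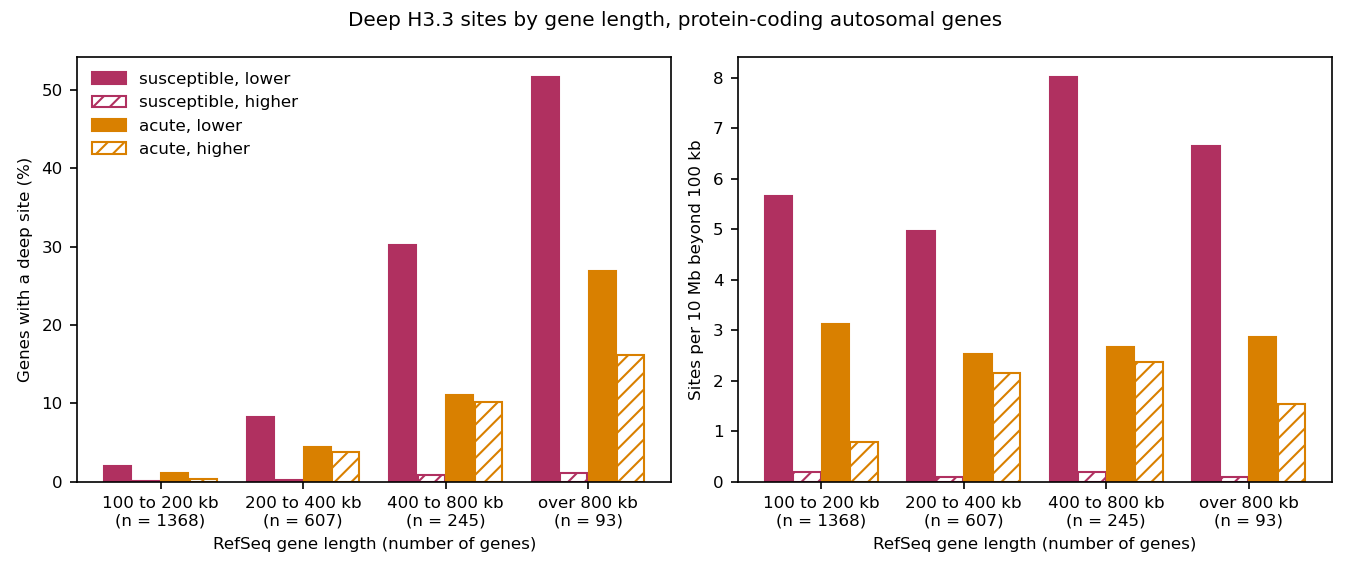
Share of protein-coding autosomal genes with a deep site (left, percent of genes) and number of deep sites per 10 Mb of gene beyond 100 kb (right), by RefSeq gene length, for susceptible and acute sites that were lower or higher than in control. The share with a lower susceptible site reaches 51.6% above 800 kb, while the density stays between 4.96 and 8.01.

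Many synaptic adhesion genes are very long, so their counts are set beside the number of sites per 10 Mb of gene beyond 100 kb. Over all long genes that density was 6.40 for lower susceptible, 2.74 for lower acute and 1.86 for higher acute sites, and the lists were not tested against it. It was highest for lower susceptible sites in lists of very short total length, 36.6 in 3 stress hormone genes and 20.7 in 9 microglial, endothelial and mural genes. The latter counts the Vwf site, which lay just past the end of its gene. Of 16 long genes of neurexins, neuroligins, teneurins, latrophilins and their partners (median length 800 kb), 8 held a lower susceptible, 4 a lower acute and 2 a higher acute site. Lower susceptible and higher acute sites numbered 9.90 and 1.65 per 10 Mb, and the 4 lower acute sites lay in 12.1 Mb of gene beyond 100 kb. Nrxn3, a presynaptic neurexin gene, had 6.51, 3.31 and 1.47 normalised counts in the susceptible libraries against 14.68 and 14.95 in the control libraries. Lrrtm4, the gene of a postsynaptic partner of neurexin and heparan sulphate, had 3.26, 0.83 and 1.47 against 11.93 and 9.61. Of 22 long contactin, IgLON and Dscam adhesion genes, 8 held a lower susceptible and 4 a lower acute site, and none a higher one, at 7.59, 3.37 and 0 sites per 10 Mb. Cntn4, a contactin gene, had 1.63, 0.83 and 1.47 against 11.01 and 9.61.

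Cadherins and catenins, which join cells through calcium-dependent adhesion, held lower susceptible sites in 8 of 23 long genes (34.8%, against 8.65% of all long genes), lower acute sites in 3 and higher acute sites in 2. Their median length was 394 kb against 172 kb over all long genes, and the densities were 10.2, 2.78 and 1.85 per 10 Mb. Fat3, a giant atypical cadherin gene, had 1.63, 2.48 and 5.87 normalised counts in the susceptible libraries against 16.52 and 15.48 in the control libraries. Cdh23, another long cadherin gene, had 1.9 and 4.29 in the acute stress libraries against 18.39 and 16.43 in the control libraries. Receptor tyrosine phosphatases, some of which organise synapses from the presynaptic side, held lower susceptible sites in 4 of 11 long genes. They held lower acute sites in 3 and a higher acute site in 1. The densities in the same order were 6.90, 5.18 and 1.73 per 10 Mb. In 34 axon guidance genes, 7 held a lower susceptible, 5 a lower acute and 3 a higher acute site, at 7.12, 6.11 and 3.05 per 10 Mb. Unc5d, a netrin receptor gene, had 3.26, 1.66 and 1.47 in the susceptible libraries against 13.76 and 12.81 in the control libraries, 544 kb into a 573 kb transcript.

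Lists of synaptic transmission genes lay on either side of the densities over all long genes. Of 17 long glutamate receptor genes, 6 held a lower susceptible, 3 a lower acute and 2 a higher acute site, at 8.43, 4.22 and 2.81 per 10 Mb. Grm7, a presynaptic metabotropic receptor gene, had 0, 1.66 and 2.94 normalised counts in the susceptible libraries against 11.93 and 10.14 in the control libraries. Of 23 long genes of presynaptic release, 5 held a lower susceptible and 1 a lower acute site, and of 18 postsynaptic scaffold and GABA synapse genes, 5 held a lower susceptible site and none an acute one. Lower susceptible sites numbered 10.4 per 10 Mb in the presynaptic and 8.03 in the postsynaptic list, beside 6.40 over all long genes. Lower acute sites numbered 1.73 in the presynaptic list, beside 2.74. Syt1, the calcium sensor gene of fast vesicle release, had 0, 3.31 and 0 against 12.85 and 10.14. Magi2, a postsynaptic scaffold gene, had 3.26, 0.83 and 0 against 10.09 and 9.61. Of 36 long voltage-gated channel genes and subunits, 5 held a lower and 1 (Kcnq1) a higher susceptible site, and 1 held a lower and 2 a higher acute site. For channels the densities of 5.14 lower susceptible, 0.857 lower acute and 1.71 higher acute sites per 10 Mb were each below those over all long genes. Nalcn, the gene of a sodium leak channel, had 8.14, 1.66 and 2.94 against 15.6 and 15.48.

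Among regulators, lower susceptible sites per 10 Mb numbered 5.04 in growth factor signalling genes and 3.99 in cAMP, phosphodiesterase and medium spiny neuron genes, below the 6.40 over all long genes. They numbered 11.9 in RNA-binding and splicing genes and 7.67 in chromatin and transcription regulators. Lower and higher acute sites per 10 Mb were 2.74 and 1.86 over all long genes, and 1.68 and 1.68 in growth factor signalling genes. They were 2.66 and 3.99 in cAMP, phosphodiesterase and medium spiny neuron genes. RNA-binding and splicing genes held 9.92 (from 5 sites) and 1.98, and chromatin and transcription regulators 3.84 and 2.88. Of 16 long growth factor signalling genes, 3 held a lower and 1 (Nrg2) a higher susceptible site, and 1 a lower and 1 a higher acute site. Erbb4, a neuregulin receptor gene, had 1.63, 1.66 and 0 normalised counts in the susceptible libraries against 10.09 and 10.14 in the control libraries. Of 22 cAMP, phosphodiesterase and medium spiny neuron genes, 3 held a lower susceptible, 2 a lower acute and 3 a higher acute site. Adcy8, an adenylyl cyclase gene, had 0, 1.66 and 4.4 against 10.09 and 11.21. Of 17 RNA-binding and splicing genes, 3 held a lower susceptible, 4 a lower acute and 1 a higher acute site. Celf2, a splicing and RNA stability factor gene, had 2.85 and 1.43 in the acute stress libraries against 15.14 and 13.8 in the control libraries. Of 36 chromatin and transcription regulators, 7 held a lower and 1 (Auts2) a higher susceptible site, and 4 a lower and 3 a higher acute site.

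Lipoprotein receptor, glypican and matrix genes, a list built around very large genes, held lower susceptible sites in 7 of 16, a lower acute site in 1 and higher acute sites in 3, at 10.2, 0.786 and 2.36 per 10 Mb. Csmd1 belongs here, and its lower susceptible site at 1325 kb (chr8:16209901-16210350) held 6.51, 3.31 and 7.34 normalised counts in the susceptible libraries against 19.27 and 19.75 in the control libraries. Of 3 long genes of the stress hormone axis, 1 held a site. Nr3c2, the mineralocorticoid receptor gene, had 0, 5.79 and 1.47 against 13.76 and 13.88. Markers of other cell types were not absent: astrocyte genes held a lower susceptible site in 1 of 8, lower acute sites in 2 and a higher acute site in 1, at 3.40, 6.80 and 3.40 per 10 Mb. Oligodendrocyte lineage genes held lower susceptible sites in 2 of 9 and a higher acute site in 1, at 7.91 and 2.64 per 10 Mb. Microglial, endothelial and mural genes, among them Vwf and Fli1, likewise held lower susceptible sites in 2 of 9 and a higher acute site in 1. These were 20.7 and 10.3 per 10 Mb, in only 0.968 Mb of gene beyond 100 kb. The Vwf site is counted in the first density although it lay just past the end of its gene, outside that stretch. Sites in such genes do not say in which cells the reads arose, and the part of cell type mixture in these results was not tested.

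Deep sites of the same gene appeared in both lists for 51 genes. Lower susceptible sites met lower acute sites in 34 of these genes and higher acute sites in 18, with Rbfox1 and Pde4d in both counts. Since the control libraries are shared, these counts are no independent evidence. Ank3 was the gene with a higher site in each. Its acute site lay 29.4 kb from the susceptible one, with 11.41 and 15.72 normalised counts in the acute stress libraries against 1.08 and 3.29 in the control libraries. Zfp407 was lower in the susceptible comparison, with 8.14, 4.14 and 4.4 against 17.43 and 18.15, at a position 38.2 kb from its higher acute site. Grik4 was lower in each, with 3.26, 2.48 and 1.47 in the susceptible libraries against 11.01 and 11.21 in the control libraries at a site 14.4 kb from the acute one. In Csmd1, the lower susceptible and the higher acute site were 248 kb apart.

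The same position was listed in both comparisons at 12 deep sites, 4.88% of the susceptible and 6.98% of the acute deep sites. All 12 were lower in each, and 11 of them lay in 9330182L06Rik, Adgrl3, Apbb2, Atrnl1, Epha6, Lrp1b, Nalcn, Opcml, Pde4d, Rbfox1 and Tenm4. At 4 of 4 positions with identical coordinates, control reads were the same number, so the same control reads stand behind each comparison and the shared direction is not an independent repeat. Atrnl1, an attractin-like gene, had the most control signal of the 12 (chr19:58009526-58009950). It held 8.14, 5.79 and 5.87 normalised counts in the susceptible libraries against 20.19 and 21.89 in the control libraries, and 9.51 and 2.86 in the acute stress libraries against 22.71 and 24.97. The acute stress libraries differed more from each other there than the susceptible ones.

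**Figure D5:**
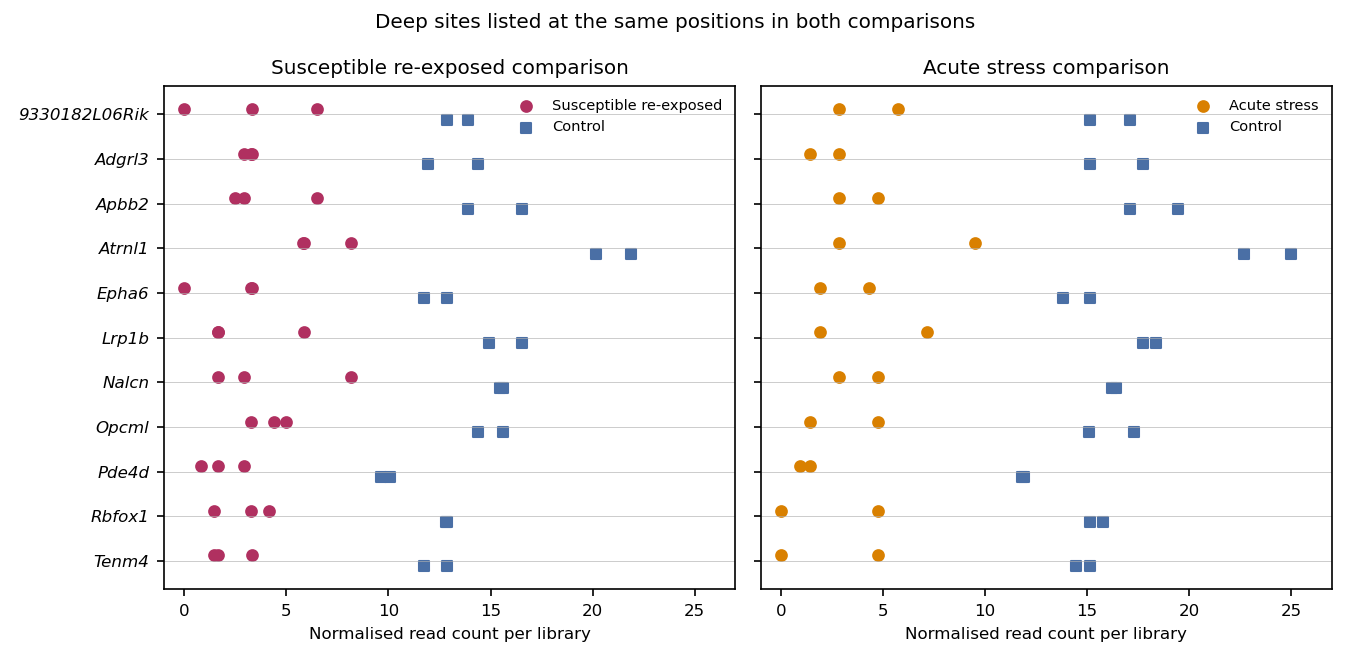
Normalised read counts per library at 11 of the 12 deep sites listed at the same position in both comparisons, with stress libraries as circles and control libraries as squares. At each site every stress library lies below both control libraries; the squares in the left and right panels come from the same control libraries under different normalisations.

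Adgrl3 held 3.26, 3.31 and 2.94 normalised counts in the susceptible libraries against 11.93 and 14.41 in the control libraries at the shared position (chr5:81637901-81638200), 616 kb from the start. Tenm4, a teneurin gene whose product is a latrophilin partner, had 1.63, 3.31 and 1.47 against 12.85 and 11.75, and 4.75 and 0 in the acute stress libraries against 15.14 and 14.45. At Rbfox1 (chr16:6398126-6398425) the values were 3.26, 4.14 and 1.47 against 12.85 and 12.81, and 4.75 and 0 against 15.14 and 15.77. The susceptible libraries were near each other at Adgrl3, and acute stress library 2 held no read at Tenm4 and Rbfox1. Over the 12 positions the ratio ran from 0.163 to 0.301 in the susceptible and from 0.0963 to 0.284 in the acute comparison.

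The label of these sites was checked against RefSeq annotation of the same build. Of the 418 sites, 413 lay inside the RefSeq gene to which the authors assigned them. The other 5 were those of Vwf, Dennd4a and Hivep2, just past the 3' end, Gm13152, and Mir6380, whose site lay inside Sgcd. The distance was measured from the start of the assigned transcript, and 15 sites, all lower, lay within 100 kb of another listed start of the same gene. The nearest was that of Etl4, only 6.78 kb from such a start although 213 kb from the assigned one, and those of Gm13152, Chn1, Celf2 and Palld lay 13.5, 14.2, 19.5 and 22.3 kb away. Without the 15 sites, 228 lower and 6 higher susceptible and 98 lower and 71 higher acute sites were left.

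Listed sites on either side of the limit had similar values, within the narrow range that listing allowed. Just inside it, Chn1 at 100708 bp had mean values of 1.87 normalised counts in susceptible against 13.0 in control libraries, and Gm19782 at 101217 bp had 2.91 against 14.4. Just outside it, Nars2 at 99798 bp had 4.97 against 17.7 and Ebf1 at 99613 bp had 2.94 against 12.3. In the acute comparison the sites just inside, Gigyf2 at 100465 bp and Tango6 at 100657 bp, had 1.67 against 14.0 and 2.61 against 15.7. Those just outside, Wnk2 at 99403 bp and Prr16 at 99365 bp, had 1.43 against 12.2 and 2.61 against 17.9. All 8 were lower than in controls.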

How the data were processed

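H3.3 ChIP-seq was done on pooled mouse nucleus accumbens, and the authors deposited 2 lists of differential sites, used here. The submitters' processing notes name Bowtie2 2.2.0, SAMtools 0.1.19 and build mm10. The table names give diffReps with windows of 250 bp, and no source used here gives its version, test or filters. Deposited count cells hold normalised read counts for each library, and the average columns a mean signal per group, per the file headers. An enrichment ratio per group was deposited by the authors with no stated denominator. So were a log2 fold change (stress over control, deposited), a p-value and an adjusted p-value (both deposited) for each site. Sites carry a gene, a transcript and a class, per the file headers; exon and intron were not used here.

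Deep sites were rows of class gene body more than 100000 bp from the start of the assigned transcript. Count cells held fewer control and acute stress libraries than the labels describe, without library names. The planned design left the unit open. Since values were normalised and only differential sites are listed, no model of counts was used and the deposited p stayed the main test. Whole reads were recovered by dividing by each library's step (99.9% to 100% whole within 0.011 normalised counts). The two-sided exact binomial test (SciPy 1.17.1), run on every row and tested on simulated data, took relative depth from these steps, so it is no check on the normalisation. Ratios have Clopper-Pearson 95% intervals. Tests and intervals cover counting error only. Each library pooled 5 animals and replicates are biological per the labels.

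Gene lengths and starts came from RefSeq (GRCm38.p6, which has the coordinates of mm10), and every deep site's gene matched by symbol. The members and the 18 gene lists were chosen with earlier results of these data known. Sites named were, per table and direction, the 8 with the smallest p and the 3 farthest, all higher susceptible sites, genes with several deep sites or sites in both tables, up to 3 per list by p, and the 2 nearest the limit on each side; 1 gene met by these rules is not reported here.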

Additional observations from a re-analysis of the deposited data

How the results depend on the processing

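With a limit of 200 kb there were 151 lower susceptible, 52 lower acute and 43 higher acute sites, and with 50 kb 108 higher acute sites. An authors' p under 0.00001 left 49 lower and 2 higher susceptible and 17 lower and 12 higher acute sites. Leaving out each library in turn, the sites passing the exact binomial test ranged from 27 to 101 (lower susceptible), 0 to 4 (higher susceptible), 1 to 31 (lower acute) and 3 to 11 (higher acute), with fewer reads in each fit. Counting 1 site per gene, keeping sites before the transcript end, a threshold of 0.001 or an adjusted p under 0.05 moved no count by more than 1.5 times. The looser threshold and the adjusted p could hardly lower a count, because they covered only sites already listed at a deposited p under 0.0001. Both of the following alternatives were chosen after seeing the data. A p of 2 times the smaller tail left 208, 4, 78 and 35 sites passing in the same order, and leaving out sites near another start is given with the label check. The 12 shared sites were the same number when an overlap over most of the shorter site was asked for. The direction held at 30 of 30 named sites with any library left out. Leaving out a library could not reverse it where the groups did not overlap. That was so at all the named sites except Plxdc2 and the higher Auts2 site. Without control library 2, Abca13 had no control read and so no finite ratio. No paired analysis was possible because the count cells carry no replicate numbers. Base composition of the central part of the sites was not run, since no genome was used here. Depth limits these values: sites rest on few reads, from 2 or 3 libraries per group, and unlisted windows were not analysed here.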
